A study of Mus musculus with 28 samples.

Results

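The data compared p66-/- with WT mouse embryonic fibroblasts (MEFs) over 3 culture conditions, to find genotype differences that were present in every condition rather than in the response to a treatment. The comparison used 20 of the 28 arrays of the series: all 10 p66-/- arrays and all 10 WT arrays, chosen by their genotype label and not by any measured value. In each genotype, 4 arrays came from cells left untreated, 4 from cells exposed to 400 μM H2O2 and 2 from cells exposed to 0.25 μg/ml doxorubicin (Doxo), for 4 h. The cells were at passage 2 and came from 13.5-day embryos. The 8 p53-/- arrays were outside the fit and are mentioned only where their values bear on a result. Both genotypes received the same agents, and Doxo is a DNA-damaging drug. The labels give the strain as C57Bl/6, while the methods of the study name another strain for the arrays, with 4 independent preparations, so the background of each preparation is unsettled. Each array measured 45037 probe sets as log2 values, after 104 control probe sets were left out, and the array medians lay between 4.36 and 4.45. An array value is a fluorescence summary, so fewer cells that express a gene and less RNA per cell cannot be told apart.

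Shc1 encodes 3 adaptor proteins, p66, p52 and p46, which share their phosphotyrosine-binding and SH2 domains and differ at the amino terminus. The shorter isoforms couple activated growth factor receptors to Grb2 and Ras signalling. The p66 isoform is known for a different role, in which it moves to mitochondria under stress and takes electrons from cytochrome c to form hydrogen peroxide. The p66 transcript and the transcripts of the shorter isoforms start from different promoters and share most of their exons. An array that reads the shared 3′ part therefore measures the sum of the isoforms. The positions of the probes were not used here, so the Shc1 probe sets were not taken as a check of the deletion.

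The gene lies on the plus strand of mouse chromosome 3, and the RefSeq table used here (build GRCm38.p6) holds 2 start windows for it, each of 300 bases from 250 before to 50 after a start. They are shown because the deletion removes one product of this gene while the probe sets measured here are named for the gene as a whole. Capitals mark CCAAT boxes (CCAAT or ATTGG) and GC boxes (GGGCGG or CCGCCC), searched on both strands.
Shc1 window 1, chr3:89418301-89418600, plus strand: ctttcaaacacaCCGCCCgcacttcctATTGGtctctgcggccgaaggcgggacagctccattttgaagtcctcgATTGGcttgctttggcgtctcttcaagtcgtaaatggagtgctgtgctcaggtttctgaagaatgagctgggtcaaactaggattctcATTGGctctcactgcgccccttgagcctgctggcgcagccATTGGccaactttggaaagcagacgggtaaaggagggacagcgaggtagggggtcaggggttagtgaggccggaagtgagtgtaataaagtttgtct
Shc1 window 2, chr3:89421371-89421670, plus strand: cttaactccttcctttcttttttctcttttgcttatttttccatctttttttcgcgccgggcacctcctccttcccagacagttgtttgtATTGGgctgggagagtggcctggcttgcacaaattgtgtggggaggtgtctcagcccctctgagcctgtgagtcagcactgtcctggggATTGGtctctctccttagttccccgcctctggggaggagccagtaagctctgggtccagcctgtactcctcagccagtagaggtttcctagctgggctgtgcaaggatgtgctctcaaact
The first window held 4 CCAAT boxes, 1 GC box and 13 CpG dinucleotides. The second held 2 CCAAT boxes, no GC box and 4 CpG dinucleotides. The median over all 32851 windows of that table was 7 CpG dinucleotides, 37.4% of them held a CCAAT box and 35.7% a GC box. These matches describe the letters of the windows only.

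Before the results, 2 features of the arrays need stating. First, overall profiles did not sort by genotype. The distance between 2 arrays of the same treatment was taken as the SD of their log2 differences over all probe sets, and the nearest array of 5 of the 10 p66-/- arrays was a WT array. The lys spike-in control, an added RNA that does not come from the cells, averaged 4.96 to 5.27 in replicates 1 and 2, 3.22 to 3.95 in replicates 3 and 4 and 4.06 to 4.37 in the Doxo arrays, so these 3 sets of arrays were treated as separate array sets. The p66-/- replicates 3 and 4 were the closest pair among the p66-/- and WT arrays of each treatment, at 0.184 when untreated and 0.156 after H2O2, against 0.205 and 0.429 for WT replicates 3 and 4. WT H2O2 replicate 3 lay at 0.429 from its nearest array.

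Second, the 2 arrays labelled p66-/- replicate 2, untreated and H2O2, lay nearer to WT replicates 1 and 2 than to any p66-/- array. Being nearer to WT arrays was not particular to them. Untreated p66-/- replicate 1 lay at 0.362, 0.377 and 0.404 from WT replicates 1, 3 and 4, and at 0.407 to 0.463 from p66-/- arrays. Both p66-/- Doxo arrays also lay nearer to the WT Doxo arrays than to each other. At 14 probe sets called in replicates 3 and 4 or in Doxo arrays, described later, p66-/- replicate 2 was compared with 2 means. It was closer to the WT mean than to that of the other p66-/- arrays for 12 untreated and 10 after H2O2. The same share over all probe sets was not counted, so these counts are a description. Untreated p66-/- replicate 2 lay at 0.407 to 0.530 from the other p66-/- arrays, against 0.323 and 0.322 from WT replicates 1 and 2. From WT replicates 3 and 4 it lay at 0.466 and 0.477, farther than from p66-/- replicate 1 (0.407). After H2O2, p66-/- replicate 2 lay at 0.416 to 0.509 from the other p66-/- arrays, against 0.329 and 0.297 from WT replicates 1 and 2. It lay at 0.765 and 0.511 from WT replicates 3 and 4, farther than from any p66-/- array. The Shc1 probe sets were not taken as a check of these 2 labels. The results are therefore given with and without p66-/- replicate 2, and the reason for its values was not tested. The 14 are not separate genes, since they include several probe sets each of Nnt, Wdfy1 and Vopp1, and a probe set of Pou3f3. For these genes the p-values without that replicate follow partly from the choice and are a description.

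**Figure D1:**
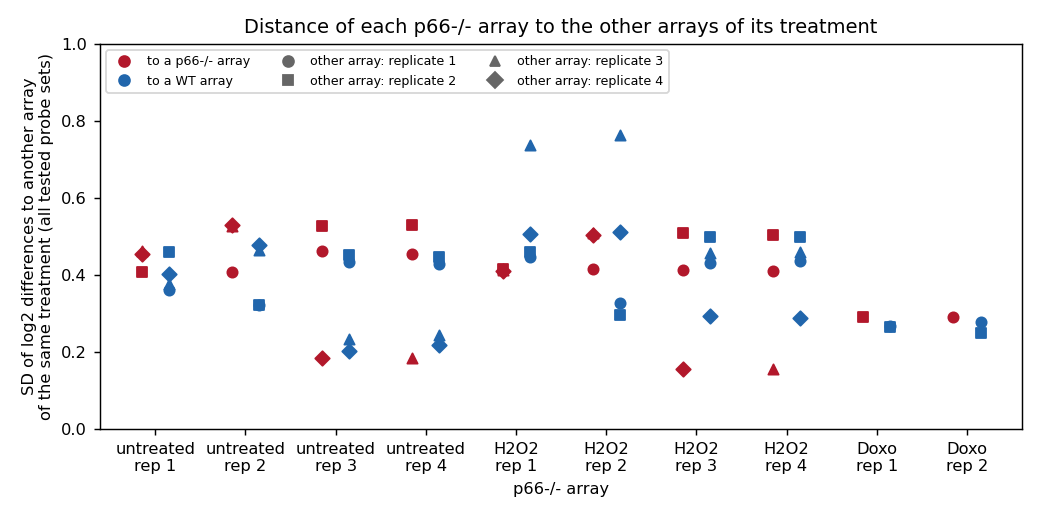
Each p66-/- array (x axis) against the SD of its log2 differences to every other array of the same treatment (y axis); red symbols are distances to p66-/- arrays, blue symbols to WT arrays, and the symbol shape gives the replicate number of the other array. Replicates 3 and 4 lie closest to each other (0.184 and 0.156), and replicate 2 lies nearer to WT replicates 1 and 2 than to any p66-/- array.

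Over all 20 arrays, no probe set passed the adjusted threshold between p66-/- and WT cells. The additive limma fit (treatment plus genotype) called 0 of 45037 probe sets at an adjusted p under 0.05 with at least a 1.5-fold difference (0% called), and the smallest adjusted p was 0.119. At an unadjusted p under 0.05 the fit held 3670 probe sets, or 8.15%, where 2252 would fall under that threshold by the threshold alone. The methods' t-test, an unmoderated fit of the same model, also called 0 after adjustment. With the array set as a fixed term 1 probe set was called, and Shc1, Nnt and Wdfy1 each had an adjusted p of 0.0666. At unadjusted p under 0.05 and 1.5-fold, limma held 155 probe sets and the t-test 132. Same-numbered untreated and H2O2 arrays of a genotype may come from 1 preparation and were taken so. With each preparation as a random block, which allows for a correlation of 0.385 between its arrays, the count at unadjusted p fell to 1805. That is under the 2252 of the threshold alone, and 0 were called.

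Of the 155 probe sets past unadjusted p and 1.5-fold, 130 were higher in p66-/- cells (0.289% of those tested) and 25 were lower (0.0555%). These members were chosen by the pooled difference, so their profile over the treatments is a description. The higher ones had a median difference of 0.542 in untreated cells, 1.2 after H2O2 and 0.0957 after Doxo. They include Egr2 and Fos, both immediate-early transcription factors induced by growth factors, Dusp6, a phosphatase that acts on ERK, and Tnc, an extracellular matrix glycoprotein. One Egr2 probe set differed by 1.39 untreated, 1.61 after H2O2 and 0.24 after Doxo, and one Tnc probe set by 0.76, 2.44 and -0.25. The 25 lower ones had median differences of -0.725, -0.839 and -0.725, while single members varied, as Rap2b, a small GTPase of the Ras family, did at -0.89 untreated, -0.45 after H2O2 and -1.50 after Doxo. The count of higher probe sets depended on single arrays: it was 84 without p66-/- H2O2 replicate 1 and 192 without p66-/- untreated replicate 4. The lower count ran from 16 without p66-/- H2O2 replicate 1 to 43 without p66-/- H2O2 replicate 2, and without p66-/- replicate 2 in all treatments the counts were 305 higher and 103 lower.

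Shc1 was higher in p66-/- cells in all 3 treatments by the probe set with the higher mean, without passing the adjusted threshold. Its log2 values in untreated p66-/- cells were 8.17, 8.29, 8.58 and 8.51 in replicates 1 to 4, against 7.91, 7.85, 7.74 and 7.91 in untreated WT cells. The untreated groups did not overlap, and p66-/- replicate 2 lay with its own genotype here. After H2O2 the p66-/- values were 7.95, 8.03, 8.34 and 8.58, against 7.61, 7.88, 8.13 and 7.80 in WT cells, so the groups overlapped through WT replicate 3. After Doxo the values were 8.53 and 8.96 in p66-/- cells and 8.05 and 8.40 in WT cells, with no overlap.

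The fitted Shc1 difference was 0.47 ± 0.09 (log2, SE), a 1.38-fold higher level in p66-/- cells, with an unadjusted p of 6.62e-05 and an adjusted p of 0.236. That fit takes arrays of one preparation as independent, and with preparations as a random block the adjusted p was 0.839. The differences were 0.54 untreated, 0.37 after H2O2 and 0.52 after Doxo. An exact two-sided permutation test of the 4 against 4 untreated arrays gave p = 0.029, the smallest this design allows, and the same test after H2O2 gave p = 0.11. Without p66-/- replicate 2 the difference was 0.47 with an adjusted p of 0.19. The second Shc1 probe set was dimmer, at a mean of 4.89, and gave 0.44 ± 0.14 (SE, unadjusted p of 0.00442, adjusted p of 0.528). The 8 p53-/- arrays read 7.66 to 7.96 on the first probe set, within the WT range of 7.61 to 8.40.

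The other Shc family members were close to equal. Shc2 and Shc3 are adaptors found mainly in neurons. The 2 Shc2 probe sets, with means of 3.96 and 4.69, gave -0.02 and 0.06, and Shc3, at a mean of 4.14, gave -0.03, with adjusted p from 0.932 to 0.954. No probe set with the single symbol Shc4 was on the array. Of 14 measured Shc adaptors and p66 partners, 0 were called and 2 passed unadjusted p under 0.05 (14.3%, beside 8.19% of all genes): Shc1, higher in p66-/- cells, and Foxo3, a stress-responsive transcription factor, at -0.43 ± 0.16 (SE, unadjusted p of 0.0136). The median of the 14 was 0.01, against -0.03 over all 17097 genes. Grb2, the adaptor that binds phosphorylated Shc, was at -0.22, Cycs (cytochrome c) at 0.02, Prkcb (the protein kinase C that phosphorylates p66) at 0.03 and Prdx1 (a peroxiredoxin that binds p66 in mitochondria) at 0.05.

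None of the genes that flank Shc1 was called. Among the 25 genes with a probe set on each side, by order in the GRCm38.p6 annotation, 0 of 50 were called. At unadjusted p under 0.05 there were 4 higher and 2 lower in p66-/- cells, or 12%, beside 8.2% of all 16936 placed genes. The median difference of the 50 was -0.06, against -0.02 over all placed genes. The member with the widest difference was Clk2, a kinase of splicing factors 17 genes away, at 0.35 ± 0.12 (SE, unadjusted p of 0.011), and its difference was 0.77 after H2O2 but 0.02 in untreated cells. Crtc2, a coactivator of CREB 22 genes away on the other side, was at 0.22 ± 0.07 (SE, unadjusted p of 0.0041). Shc1, at 0.47, exceeded all 50 in absolute difference.

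**Figure D2:**
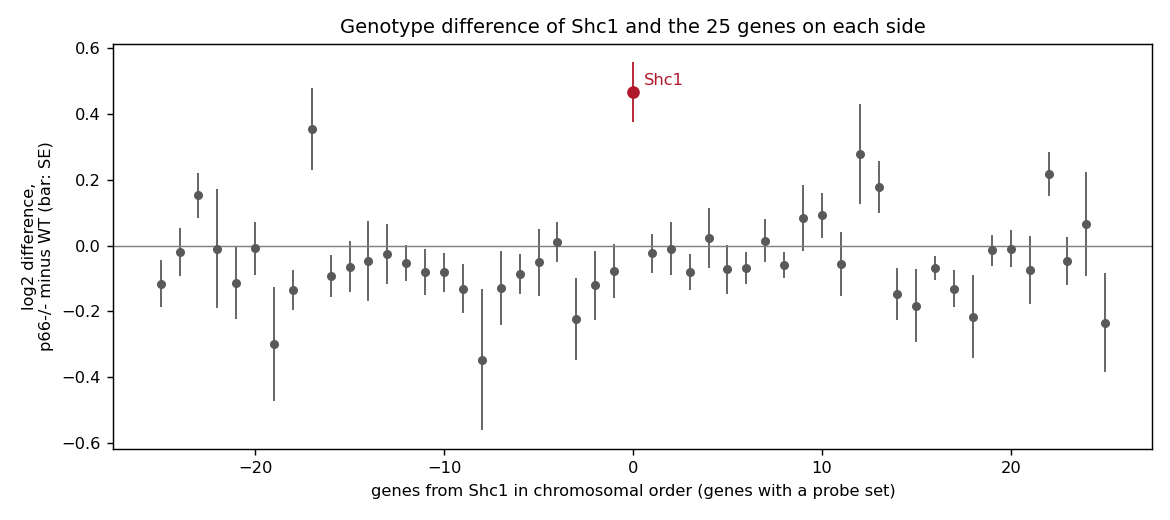
Log2 difference of p66-/- minus WT over 20 arrays (y axis, bars give the SE of the fit) for Shc1 and the 25 genes on each side in chromosomal order (x axis, genes from Shc1). Shc1 stands at 0.47 and the widest of the 50 neighbours, Clk2, at 0.35.

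Farther along chromosome 3, 9.65% of 860 genes passed unadjusted p under 0.05, beside 9.67% on chromosome 2, 12.2% on chromosome 12 and 4.53% on chromosome X. Chromosome 3 lay within the range of the other chromosomes by this count. At unadjusted p under 0.05 with at least 1.5-fold it held 8 genes, the most of any chromosome, followed by chromosome 2 with 6 of 1314. Snx27, a sorting nexin that returns receptors from endosomes to the cell surface, lies 86 genes from Shc1 and was higher by 0.25 ± 0.05 (SE, adjusted p of 0.175). Its untreated values were 6.06, 6.06, 6.33 and 6.30 in p66-/- cells and 5.93, 5.93, 5.92 and 6.01 in WT cells. With the array set as a fixed term its adjusted p was 0.049, at a difference of 0.25 that stayed under 1.5-fold. A second Snx27 probe set, at a mean of 5.26 against 5.90 for the first, gave 0.04 over 20 arrays and -0.23 after Doxo.

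Nnt was lower in p66-/- cells in every treatment and on both of its probe sets. Nnt encodes the nicotinamide nucleotide transhydrogenase, an inner mitochondrial membrane enzyme that makes NADPH from NADH, and C57BL/6J mice are known to carry a deletion within this gene. On the brighter probe set the untreated p66-/- values were 8.45, 9.63, 8.98 and 9.08 in replicates 1 to 4, against 9.56, 9.61, 9.71 and 9.94 in WT cells. After H2O2 they were 8.55, 9.33, 9.03 and 8.86 in p66-/- cells, against 9.40, 9.40, 9.91 and 10.01 in WT cells. After Doxo they were 9.20 and 8.97 in p66-/- cells and 10.25 and 9.90 in WT cells. Only replicate 2 of p66-/- reached the WT range, and only when untreated.

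The Nnt difference over 20 arrays was -0.76 ± 0.13 (SE, 1.70-fold lower, unadjusted p of 1.86e-05, adjusted p of 0.175). The exact two-sided permutation test gave p = 0.086 in untreated cells and p = 0.029 after H2O2, where 0.029 is the smallest possible. Without p66-/- replicate 2 the difference was -0.87 ± 0.12 (SE) with an adjusted p of 0.00995, and that result stayed past the threshold with preparations as a random block (adjusted p of 0.0181). In replicates 3 and 4 alone it was -0.90 with an adjusted p of 0.0271, and 0.848 with the 2 p66-/- arrays of each treatment averaged. The second Nnt probe set gave -0.77 over 20 arrays and -0.91 without p66-/- replicate 2 (adjusted p of 0.15 and 0.00376). No array of either genotype was near the array median on these probe sets. On the brighter one most p53-/- arrays were also low, at 8.74 to 9.18, below the WT range of 9.40 to 10.25. The exceptions were those of p53-/- replicate 2, at 9.46 untreated and 9.59 after H2O2. On the second probe set the p53-/- arrays, at 7.87 to 8.98, overlapped the WT range of 8.34 to 9.12. Low Nnt values on the brighter probe set were thus present in both knockout genotypes.

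Leaving out p66-/- replicate 2 in all 3 treatments gave 12 calls, or 0.0266%, of which 7 were lower and 5 higher in p66-/- cells. They fell on 5 named genes, Nnt, Wdfy1, Vopp1, Pou3f3 and Cmklr1, and on 4 probe sets without a gene symbol here. With preparations as a random block 8 of the 12 were called, 2 each of Nnt, Wdfy1 and Vopp1, 1 of Cmklr1 and 1 without a symbol, and Pou3f3 was not. Of the 12, 9 were also at least 1.5-fold in each treatment with no overlap between the remaining arrays. The 9 follow partly from the choice, since the 12 were called after this replicate was left out. In Doxo the lack of overlap rests on 1 p66-/- array against 2 WT arrays and says little. Even with 2 Doxo arrays per genotype, 12419 of 45037 probe sets did not overlap in Doxo. Leaving out any other replicate number of either genotype gave 0 or 1 call. Leaving out only the untreated array of p66-/- replicate 2 gave 5 calls, and only its H2O2 array 2. Apart from the Shc genes, Nnt and the sex-linked genes, the genes named in this account were chosen after their values were seen.

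Wdfy1 had the widest difference of all genes. It encodes a phosphoinositide-binding protein of early endosomes with a FYVE domain. On its brightest probe set the untreated p66-/- values were 6.75, 8.82, 6.12 and 6.03 in replicates 1 to 4, against 8.96, 8.28, 8.78 and 9.004 in WT cells. After H2O2 they were 6.46, 8.32, 6.04 and 6.23 in p66-/- cells, against 8.52, 7.60, 8.88 and 8.60 in WT cells, and after Doxo 6.03 and 5.72 against 8.86 and 9.34 in WT cells. All p66-/- arrays other than the 2 of replicate 2 lay at or below 6.75, all WT arrays at or above 7.60, and replicate 2 lay within the WT range in both treatments. The difference over 20 arrays was -2.03 ± 0.36 (SE, adjusted p of 0.175), and without p66-/- replicate 2 it was -2.43 ± 0.19 (5.39-fold lower, adjusted p of 2.52e-05). That replicate was set apart partly by its Wdfy1 values, so the latter p-value is a description.

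The remaining 3 Wdfy1 probe sets moved the same way, at -1.69, -1.53 and -0.66 over 20 arrays. Without p66-/- replicate 2 they were at -2.10 (adjusted p of 0.000826), -1.83 (adjusted p of 0.0521) and -0.71 (adjusted p of 0.172). The p53-/- arrays were also low on the brightest probe set, at 5.62 to 6.40, apart from the 2 of p53-/- replicate 2, at 7.87 untreated and 8.28 after H2O2. Low Wdfy1 values were thus present in both knockout genotypes.

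Vopp1, which encodes a small vesicular membrane protein, was higher in p66-/- cells. On the brighter probe set the untreated p66-/- values were 9.20, 8.06, 9.10 and 9.12, against 8.18, 7.93, 8.32 and 8.26 in WT cells. After H2O2 they were 9.25, 8.47, 9.41 and 9.43 in p66-/- cells, against 8.70, 8.38, 8.56 and 8.66 in WT cells, and after Doxo 8.90 and 9.05 against 8.21 and 8.04 in WT cells. In untreated and H2O2 arrays only replicate 2 of p66-/- overlapped WT, and no Doxo array did. The difference over 20 arrays was 0.67 ± 0.14 (SE, adjusted p of 0.306) and without p66-/- replicate 2 it was 0.86 ± 0.07 (1.81-fold, adjusted p of 2.52e-05). As with Wdfy1, the replicate was set apart partly by these values, so the latter p-value is a description. The second probe set gave 0.67 and 0.88, and the one near background, at a mean of 3.08, gave -0.05. The p53-/- arrays read 7.68 to 8.51 on the brighter probe set, close to the WT range of 7.93 to 8.70.

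**Figure D3:**
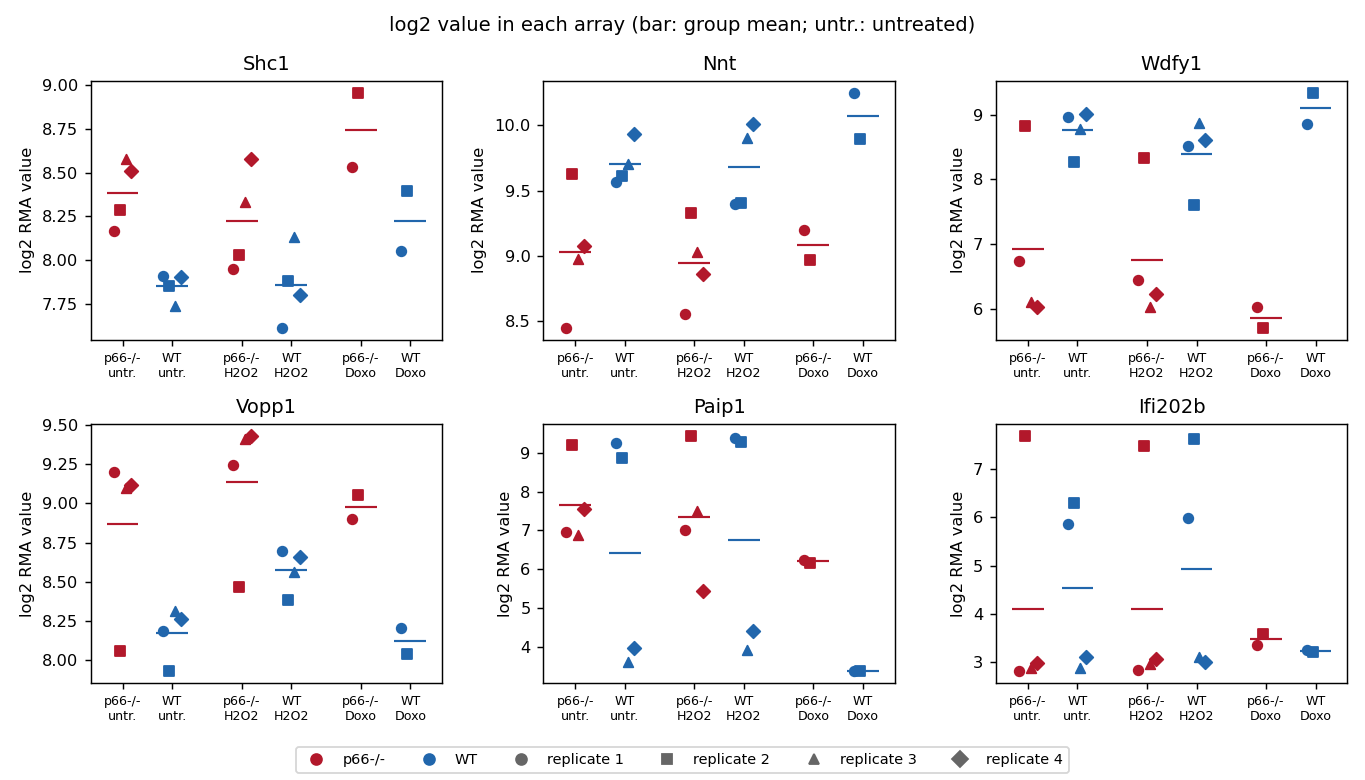
Log2 value of 6 genes in each of the 20 arrays (y axis), with p66-/- in red and WT in blue for each treatment (x axis), the replicate number as the symbol and the group mean as a bar. Replicate 2 of p66-/- (red squares, untreated and H2O2) stands apart from its own group in Nnt, Wdfy1, Vopp1, Paip1 and Ifi202b, but not in Shc1.

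Pou3f3 and Cmklr1 were higher without p66-/- replicate 2. Pou3f3 encodes a POU-domain transcription factor of the developing brain and kidney, and its called probe set went up to 5.61 in p66-/- cells, against at most 4.40 in WT cells. Its difference was 0.81 over 20 arrays (adjusted p of 0.513) and 1.08 ± 0.17 without p66-/- replicate 2 (SE, adjusted p of 0.0378), but the adjusted p was 0.3 once preparations entered as a random block. Cmklr1, the receptor for chemerin, read 6.503, 5.65, 6.54 and 6.68 in untreated p66-/- cells, against 5.69, 5.88, 5.47 and 5.98 in WT cells. Its difference was 0.55 over 20 arrays and 0.76 ± 0.09 without p66-/- replicate 2 (SE, adjusted p of 0.00381). A second probe set of each gene, near background, gave -0.07 and 0.04 over 20 arrays. Wnt4, a secreted Wnt ligand, and Cetn4, a centrin of the centriole, passed adjusted p under 0.05 without p66-/- replicate 2 (0.54 and -0.50), but stayed under 1.5-fold. The brighter Wnt4 probe set, at a mean of 6.24, gave 0.92 without p66-/- replicate 2 with an adjusted p of 0.104, and the brighter Cetn4 probe set, at a mean of 5.12, gave -0.02 with an adjusted p of 0.953.

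The arrays of replicates 3 and 4 and the Doxo arrays, which share no array and hold no untreated or H2O2 array of p66-/- replicate 2, gave the same direction for the same genes. Sharing no array does not make these sets independent. Their WT arrays shared a level at Paip1 (3.37 to 4.41, against 8.86 to 9.37 in WT replicates 1 and 2), and likewise at Ifi202b and Mccc1, described below. Whether the sets shared a source of cells was not tested. In replicates 3 and 4 alone, 13 probe sets were called (0.0289%), 8 lower and 5 higher in p66-/- cells. They were both Nnt probe sets, all 4 of Wdfy1, 2 of Vopp1, 1 each of Mccc1, Fos and Pou3f3, and 2 with no symbol. With same-numbered untreated and H2O2 arrays taken as 1 preparation, the fit rested on 2 preparations per genotype. With preparations as a random block 19 were called, all 13 among them, at a correlation of -0.148. A negative correlation makes no allowance for likeness between arrays of 1 preparation, so that fit is no check of the 13. Whether p66-/- replicates 3 and 4, the closest pair, were separate preparations was not tested. With their arrays averaged within each treatment, 0 were called in these replicates (smallest adjusted p of 0.0507) and 0 over all arrays. In the Doxo arrays alone, 4 were called (0.00888%): 3 of Wdfy1, at -3.23, -3.07 and -2.65, and 1 of Paip1, at 2.82. The 3 Wdfy1 probe sets were called in both. All 13 probe sets of replicates 3 and 4 had the same sign in the Doxo arrays, a share that was not counted over all probe sets. Of the 13, 11 were at least 1.5-fold there, whereas 0.544% of all probe sets reached 1.5-fold in the Doxo arrays.

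Set against the mean of WT replicates 1 and 2, the remaining p66-/- arrays split by replicate number. In p66-/- replicate 1, all 13 had the same sign as in replicates 3 and 4 in both treatments, and 11 untreated and 10 after H2O2 were at least 1.5-fold, beside 8.89% and 11.2% of all probe sets. In p66-/- replicate 2, 5 of the 13 had the same sign in each treatment, and 0 untreated and 2 after H2O2 reached 1.5-fold, beside 4.09% and 4.03% of all probe sets. In replicates 1 and 2 fitted alone, 0 probe sets were called by limma and 7208 passed unadjusted p under 0.05. Mccc1, a subunit of the carboxylase that breaks down leucine, was divided in the WT arrays instead. It gave -0.90 in replicates 3 and 4 (adjusted p of 0.0134), -0.80 in the Doxo arrays and -0.07 in replicates 1 and 2. Its p66-/- arrays all read 5.93 to 6.43. The WT arrays read 6.02 to 6.49 in replicates 1 and 2 and 6.79 to 7.26 in the rest. Mccc1 lies on chromosome 3, 255 genes from Shc1.

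**Figure D4:**
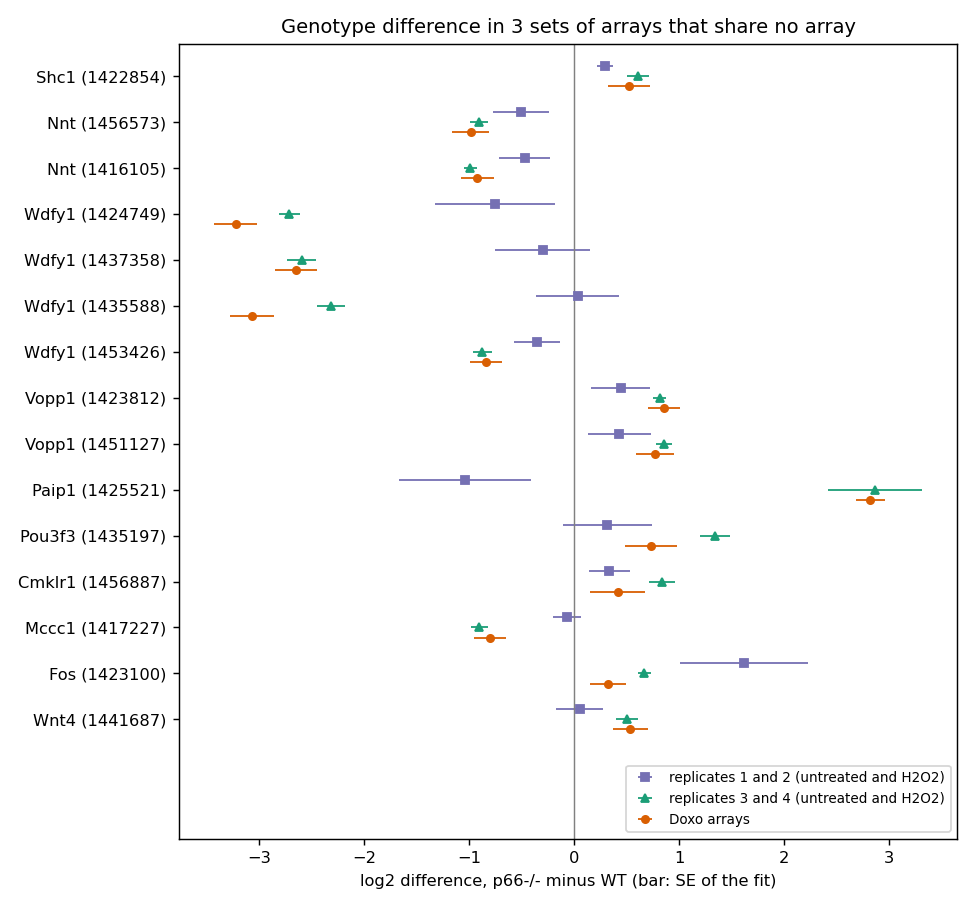
Log2 difference of p66-/- minus WT (x axis, bars give the SE of each fit) for the named probe sets (y axis) in replicates 1 and 2, replicates 3 and 4 and the Doxo arrays, which share no array. Replicates 3 and 4 and Doxo lie on the same side of 0 for every probe set shown. Most of these were named from calls in fits that hold those arrays, so this agreement follows partly from the choice. In replicates 1 and 2, Paip1 lies on the other side (-1.04, against 2.87 in replicates 3 and 4). There 1 Wdfy1 probe set also lies just across 0 (0.03, against -2.32 in replicates 3 and 4).

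Paip1 and Ifi202b divided the WT arrays as well. Paip1, which encodes a partner of the poly(A)-binding protein in translation, is the gene next to Nnt on chromosome 13 in the annotation. Its called probe set read 6.96, 9.21, 6.87 and 7.55 in untreated p66-/- cells, against 9.26, 8.86, 3.60 and 3.97 in untreated WT cells. After H2O2 it read 7.01, 9.43, 7.49 and 5.42 in p66-/- cells, against 9.37, 9.28, 3.90 and 4.41 in WT cells, and after Doxo 6.23 and 6.16 against 3.38 and 3.37 in WT cells. The WT arrays thus held 2 levels more than 4 log2 units apart, which divided replicates 1 and 2 from the rest, and p66-/- replicate 2 sat at the upper one. The difference was 2.87 in replicates 3 and 4 and -1.04 in replicates 1 and 2. A second Paip1 probe set of like brightness gave 0.31 over 20 arrays and one near background gave -0.07.

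Ifi202b, an interferon-inducible gene of the p200 family whose level is known to differ among mouse strains, was at 7.69 and 7.49 in p66-/- replicate 2 and at 2.81 to 3.58 in the other 8 p66-/- arrays. In WT arrays it was at 5.85 to 7.63 in replicates 1 and 2 and at 2.87 to 3.24 in the rest. In p53-/- arrays it was at 5.52 and 4.92 in replicate 2 and at 2.998 to 3.22 in the others. The arrays with high Ifi202b were therefore p66-/- replicate 2, WT replicates 1 and 2 and p53-/- replicate 2, and it did not follow genotype (difference of -0.46 ± 0.80, SE, adjusted p of 0.899).

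A list of 16 genes known to differ among mouse strains had 11 measured members. None was called over 20 arrays by limma, and 4 passed unadjusted p under 0.05 (36.4%, beside 8.19% of all genes), all lower in p66-/- cells: Nnt, Wdfy1, Glo1 (glyoxalase 1, which clears methylglyoxal) at -0.44 ± 0.16 (SE) and Alad (the second enzyme of heme synthesis) at -0.29 ± 0.13 (SE). The median of the 11 was -0.09. This list was chosen with earlier results of these data known, so its count is a description.

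No probe set met the full definition of a constant difference over 20 arrays (called, at least 1.5-fold with the same sign in each treatment, and no overlap in any treatment). All 13 probe sets called in replicates 3 and 4 met it there, where it covers only untreated and H2O2 cells, and Fos, one of them, was at 0.32 after Doxo. Dropping the call and keeping the separation, 10 probe sets (0.0222%) did not overlap between genotypes in any treatment and had the same direction, 4 higher and 6 lower in p66-/- cells. The 3 with a gene symbol were Adgrl1 (a latrophilin adhesion receptor), Snx27 and Greb1, and their sizes were small: over the 10 the absolute difference ran from 0.159 to 0.462. Adgrl1 read 8.05, 8.09, 8.04 and 8.14 in untreated p66-/- cells, against 7.74, 7.88, 7.82 and 8.01 in WT cells, a difference of 0.24 ± 0.04 over 20 arrays (SE, adjusted p of 0.175). By the rule of no overlap, p66-/- replicate 2 lay on the side of its label for all 10. A second Adgrl1 probe set gave 0.18.

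Dropping the separation and keeping the size, 16 probe sets (0.0355%) were at least 1.5-fold with the same sign in each treatment, 10 lower and 6 higher in p66-/- cells, and none of the 16 was among the 10. They were the 4 Wdfy1 and 2 Nnt probe sets, Erdr1, Plekhj1 and Cyp7b1 (an oxysterol hydroxylase) on the lower side and both Ccn3 probe sets, Ifi27l2a and Paip1 on the higher side, with 3 that had no symbol. Single arrays carried several of these. Erdr1 read 6.51 and 6.76 in p66-/- replicate 1, against 8.75 to 10.06 in the other 8 p66-/- arrays and 9.03 to 10.70 in WT arrays. Ccn3, a secreted matricellular protein, ranged from 5.27 to 9.42 among the WT arrays alone.

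The genotype difference changed with treatment at 1 probe set (0.00222%, F test over 6 group means, adjusted p of 0.0308), and 1891 passed unadjusted p under 0.05. This probe set has no gene symbol here. It read 3.14, 3.29, 3.45 and 3.52 after H2O2 in p66-/- cells, against 4.15, 4.51, 4.38 and 4.42 in WT cells. Untreated values were 2.91 to 2.97 in p66-/- cells and 2.78 to 3.05 in WT cells, so the genotypes overlapped there and separated after H2O2. The signal was low throughout, at a mean of 3.32, where the lowest array median was 4.36. The call was lost without the dimmest 40% of probe sets, which is no test of it if this probe set was itself left out. The count ran from 0 to 9 over the fits that left out an array or a replicate number.

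None of the other gene lists held a called gene over 20 arrays, and their medians lay within 0.2 of 0. The 33 measured G2 and mitosis genes had 0 members past unadjusted p under 0.05 and a median of 0.00, with medians of -0.17 untreated, 0.18 after H2O2 and 0.04 after Doxo. Among 32 p53 targets, 3 passed unadjusted p under 0.05 (9.38%, beside 8.19% of all genes), all lower in p66-/- cells: Bbc3 (the BH3-only protein Puma) at -0.44, Tnfrsf10b (a TRAIL receptor) at -0.33 and Gtse1 (a G2 and S phase protein that binds p53) at -0.36. Their median was -0.13 over 20 arrays, -0.23 after H2O2 and 0.04 after Doxo. Among 22 genes of mitochondrial redox and peroxide defence, 2 passed (9.09%), Nnt and Txnrd2 (mitochondrial thioredoxin reductase) at -0.26 ± 0.10 (SE), and Sod2, Cat and Gpx1 were at 0.00, 0.06 and -0.09.

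No matrix or contractile gene passed the adjusted test. Of 41 collagen and matrix genes, 3 passed unadjusted p under 0.05 (7.32%, beside 8.19% of all genes), all higher: Col4a1 at 0.36 and Col4a2 at 0.27 (both basement membrane collagen chains) and Loxl1 (a lysyl oxidase) at 0.15. The list median was 0.14, with 0.22 after H2O2 and 0.07 after Doxo. Ccn1 and Ccn2, secreted matricellular proteins induced by serum and stretch, were at 0.99 ± 0.31 and 0.49 ± 0.17 (SE), with Ccn1 at 2.10 after H2O2 and -0.09 after Doxo. Of 34 Hox genes, which record the position of fibroblasts in the embryo, 3 were higher and 3 lower at unadjusted p under 0.05 (17.6%, beside 8.19% of all genes), and the widest of the 6 was Hoxa7 at -0.28 ± 0.09 (SE). Of 45 other positional and lineage transcription factors, 0 were called, 4 passed unadjusted p under 0.05 (8.89%) and the median was 0.02. The 4 were Foxf1, Gata6, Emx2 and Irx1, transcription factors of organ and trunk patterning, at 0.26 to 0.51.

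**Figure D5:**
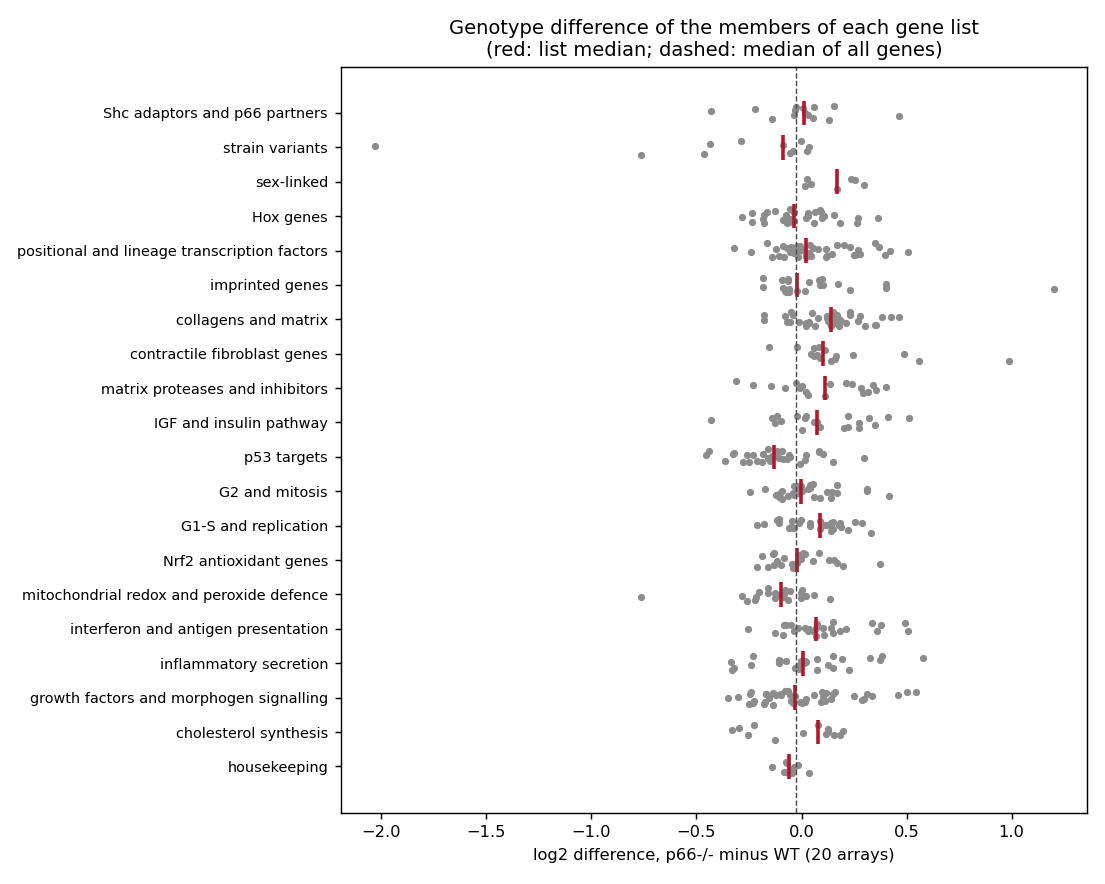
Log2 difference of p66-/- minus WT over 20 arrays (x axis) for the measured members of each gene list (y axis, 1 grey point per gene), with the list median in red and the median of all genes (-0.03) as a dashed line. The list medians lie near 0, and Wdfy1 at -2.03 and Nnt at -0.76 stand apart in the list of strain variants.

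The arrays carried fibroblast RNA in both genotypes. The mean over 9 fibroblast markers was 8.78 to 9.96 in p66-/- arrays and 8.67 to 10.2 in WT arrays, and 7 of the 9 had a group mean over 6 in each genotype. Endothelial markers stayed at 3.63 to 3.95 in p66-/- arrays and 3.66 to 3.96 in WT arrays. Macrophage and blood markers were at 6.31 to 6.97 in p66-/- arrays and 5.48 to 6.98 in WT arrays, and of its 5 members only Ptprc (CD45) passed unadjusted p under 0.05, at 0.62 ± 0.21 (SE). The median of the 5 was 0.11, with 0.378 in untreated cells, -0.047 after H2O2 and 0.0794 after Doxo. Outside that list, the macrophage genes Adgre1, at 0.63 (unadjusted p of 0.0282), and Mpeg1, at 0.59 (unadjusted p of 0.0427), were picked among the probe sets past unadjusted p and 1.5-fold. They were at 0.93 and 0.72 in untreated cells, 0.49 and 0.51 after H2O2 and 0.32 and 0.50 after Doxo. Their part in the other differences was not tested. Xist and the Y-linked Eif2s3y were both present in untreated and H2O2 arrays, at 8.31 to 10.8 and 5.52 to 8.71. The Doxo arrays read 7.75 to 8.85 for Xist and 3.60 to 4.14 for Eif2s3y. The lower Doxo level was not limited to the Y-linked gene. On its brightest probe set the X-linked Eif2s3x had means of 8.88 and 9.07 in p66-/- and WT Doxo arrays, against 10.29 and 10.28 untreated. The X-linked Kdm5c was not lower on its brightest probe set. Between genotypes, 0 of 7 sex-linked genes passed unadjusted p under 0.05.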

How the data were processed

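The authors hybridised labelled RNA to mouse 430 PM array strips and deposited log2 values, normalised by RMA in Partek 6.5 per the labels. The values were used as deposited, and all 28 columns mapped to a sample. Groups came from the labels. Probe sets took the gene of the platform annotation, updated by gene identifier: 28898 had 1 symbol, 551 several and 15588 none. Genes with several probe sets were represented by the one with the highest mean. Chromosome and gene order came from RefSeq (GRCm38.p6), since the arrays name no build. R 4.3.3 with limma 3.58.1 fitted treatment plus genotype to 20 arrays, with Benjamini-Hochberg adjustment over 45037 probe sets, and a call required adjusted p under 0.05 and 1.5-fold. The fits were tested on simulated data with independent noise in each array. That test does not cover correlation within preparations or differences between array sets. The named genes were to be the Shc genes, Nnt, sex-linked genes and called constant differences, list members and neighbours. The members and lists were chosen with earlier results of these data known. The methods count 4 independent preparations, and p-values measure the spread between these arrays. The number of arrays limits the precision.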

Additional observations from a re-analysis of the deposited data

Results flagged for a closer look

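An array was singled out where its gap to the nearest of its group exceeded Dixon's critical value. Of 192 groups of 4 arrays tested over the named probe sets, 18 were marked, and chance flags about 1 in 20 groups. Of the 18, 10 were p66-/- replicate 2. Many of these probe sets were named because they passed without that replicate, so its share follows from the choice, and the rate of 1 in 20 does not apply to them. Ifi202b stood at 7.691 untreated and 7.491 after H2O2 in that replicate, against 2.81 to 3.58 in the other p66-/- arrays. Vopp1 stood at 8.059 and 7.771 on its 2 brighter probe sets in the untreated array. Cmklr1 (5.125) and Cyp7b1 (6.264) stood apart in the H2O2 array and Ifi27l2a (5.813) in the untreated one. One probe set without a symbol read 3.835 untreated and 2.942 after H2O2, where the other p66-/- arrays read 6.01 to 7.27, and another read 7.671 after H2O2.

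In p66-/- replicate 1, Erdr1 was at 6.756 and Greb1 at 4.499 after H2O2, and a probe set without a symbol was at 10.08 untreated. In WT arrays that same probe set was at 10.98 in H2O2 replicate 3, Fos at 6.83 in H2O2 replicate 2, Vopp1 at 7.566 in untreated replicate 2, and Snx27 at 6.007 and Wnt4 at 5.245 in untreated replicate 4. The genotype difference changed with treatment at a probe set without a symbol, by limma's F test over the 6 group means (adjusted p of 0.0308), which is a test of the difference itself. Causes were not tested.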

How the results depend on the processing

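The count of calls was 0 over 20 arrays and stayed 0 in 15 of 22 other settings. It was 1 with the array set as a fixed term, 4 in Doxo arrays alone, 13 in replicates 3 and 4 alone and 132 with the methods' t-test at unadjusted p. Chosen after seeing the data, leaving out p66-/- replicate 2 of untreated and H2O2 cells gave 14, and leaving out p66-/- replicate 2 with preparations as a random block gave 8. Replicates 3 and 4 alone gave 19 with that block, at a correlation of -0.148, and 0 with the p66-/- arrays averaged, both also added. Leaving out an array or replicate number gave 0 to 12, with 12 without p66-/- replicate 2 and 1 each without WT replicate 2 or WT replicate 3. Constant differences were 0, but 13 in replicates 3 and 4 without Doxo arrays, 18 there with the block, and 11 and 8 without p66-/- replicate 2, with 0 to 9 over the leave-outs. Shc1 was 0.465 in the methods' t-test, where it passed at unadjusted p, and 0.405 to 0.566 over the leave-outs. Nnt passed at -0.905 in replicates 3 and 4, at -0.762 in the methods' t-test at unadjusted p and at -0.896 and -0.870 in the added settings, with -0.870 to -0.634 over the leave-outs. The Shc1 neighbourhood median ran from -0.089 to -0.0285 over the leave-outs. The change with treatment gave 0 after further quantile normalization, without the lowest 40%, by the adjusted methods' t-test and with p66-/- replicates 3 and 4 averaged, 2136 by that t-test at unadjusted p, 3 without the untreated and H2O2 arrays of p66-/- replicate 2, and 0 to 9 over the leave-outs. Paip1 turned to -1.04 in replicates 1 and 2. Ifi202b turned to 0.243 in Doxo arrays and 0.125 without WT replicate 2, within -1.49 to 0.125 over the leave-outs. The cause was not tested.

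Same-numbered p66-/- and WT arrays correlated at 0.3 to 0.7 untreated and after H2O2 but at 0.09 after Doxo, so the numbers were not taken to pair the samples. The replicate block gave 0 calls, 0 constant differences, 1 change with treatment, a Shc1 difference of 0.465 (adjusted p of 0.0551), an Nnt difference of -0.762 (adjusted p of 0.0842) and a neighbourhood median of -0.0615. With 2 Doxo arrays per genotype, precision there is limited.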
